A study of Arabidopsis thaliana with 9 samples.

Results

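Leaves treated with an extract of *Pieris brassicae* eggs (EE) were compared directly with leaves that had carried intact egg batches of this butterfly. The comparison used 6 of the 9 libraries of the series, chosen by their labels: EE replicates 1 to 3 and oviposition replicates 1 to 3. The 3 libraries from untreated plants entered no contrast, and their values are given only as a reference level. The question was which gene functions differ in strength between crushed and intact eggs.

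All plants were *Arabidopsis thaliana* Col-0, aged 5 weeks and grown under short days, and RNA came from whole treated leaves. For oviposition, plants spent 24 h in a tent with butterflies and then 4 days in a growth chamber, after which the eggs were lifted off with forceps. Each oviposition sample was taken from 4 plants carrying 1 egg batch on 2 leaves. Each EE sample was taken from 4 plants, with 2 drops of 2 µL spotted under each of 2 leaves, and leaves were collected after 5 days. The oviposited plants therefore also differed from the EE plants in the stay in the tent, the contact with butterflies and the removal of eggs. Effects of these steps cannot be told apart from effects of intact eggs against extract.

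Insect eggs on a leaf are perceived by the plant, which answers with salicylic acid (SA) accumulation, expression of pathogenesis-related genes and local cell death, a reaction that shares much with pattern-triggered immunity (PTI). Jasmonate signalling in *Arabidopsis* has a pair of branches. The MYC branch controls wound and herbivore responses such as vegetative storage proteins, and the branch that also needs ethylene acts through ORA59 and controls plant defensins. The leaf surface is sealed by cutin and waxes, and suberin, a related polyester, is laid down where tissue is sealed from its surroundings.

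The deposited values are log2 normalized CPM (read counts scaled to a common library size) of 17605 genes, so that a value of 0 stands for 1 CPM. Whole reads recovered from these values summed to between 37348236 and 47057692 per library. The leaf markers *RBCS1A*, *RCA* and *PSBO1* were at log2 values of 10.65 or more in all 9 libraries. A further leaf marker, *LHCB1.1* (AT1G29920), was at 5.69, 5.60 and 5.40 in replicate 2 of the control, oviposition and EE groups. In the other libraries it was at 10.62 to 13.4. The tested root, seed and flower markers were not among the listed genes. The replicate 2 libraries stood apart in the oviposition and EE groups: *CAB1*, a light-harvesting protein gene, was at 11.68 in oviposition replicate 2 against 15.44 and 14.33 in the other oviposition libraries, and at 11.47 in EE replicate 2 against 14.33 and 14.35. In controls *CAB1* was at 12.21, 12.22 and 16.09, so that replicate 3 stood apart there, whereas by *LHCB1.1* control replicate 2 stood apart. The part of this difference in the results below was not tested, but the results are also given with same-numbered libraries paired, which removes differences shared by a pair. RNA came from leaves, so more expressing cells and more RNA per cell cannot be told apart.

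Without pairing, 3 genes passed an adjusted p of 0.05 in limma over all 9 libraries. *AACT1* and *GH3.2* were higher after EE, which is 0.0114% of the genes tested, and *AT4G16240* was lower, which is 0.00568%. A further look at unadjusted p under 0.05 gave 502 genes, 255 higher and 247 lower after EE. When only the 6 libraries were fitted and same-numbered libraries were paired, 136 genes passed, 71 higher after EE (0.403% of genes) and 65 lower (0.369%). These shares are the reference for all counts of called genes in the groups below. Called there means past the threshold in this paired test unless another test is named. For groups that do not overlap, the reference is 4.28% of all genes with EE higher and 6.06% with EE lower. The pairing rests on deviations from group means, which correlated within each number, and no label says that a number marks a shared experiment. Of the 136 genes, 133 did not pass in the unpaired test above. Some other unpaired fits over the 9 libraries called more of the 136: 14 with quantile normalization, 34 with 1 CPM added and 44 with weights per library. The remaining such fits at this threshold called from 3 (robust prior) to 5 (precision weights or voom) of them. All of these fits used the same libraries. All 3 genes of the unpaired test were among the 136. With the pairing fitted over all 9 libraries, however, 1 gene, *AACT1*, passed. The unpaired count was also 0 without any single oviposition library or without EE replicate 1, and 1 without control replicate 3, EE replicate 2 or EE replicate 3. The paired count was 386 without pair 1, 271 without pair 2 and 60 when the variance was not allowed to follow the mean. All 136 genes kept their direction in these fits. This is no independent check, as the genes were picked from the same pairs and the fit without the trend leaves the differences unchanged. In the unpaired test, 14 genes passed after quantile normalization (11 higher and 3 lower after EE), and 36 passed when 1 CPM was added before the logarithm (29 higher and 7 lower).

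**Figure D1:**
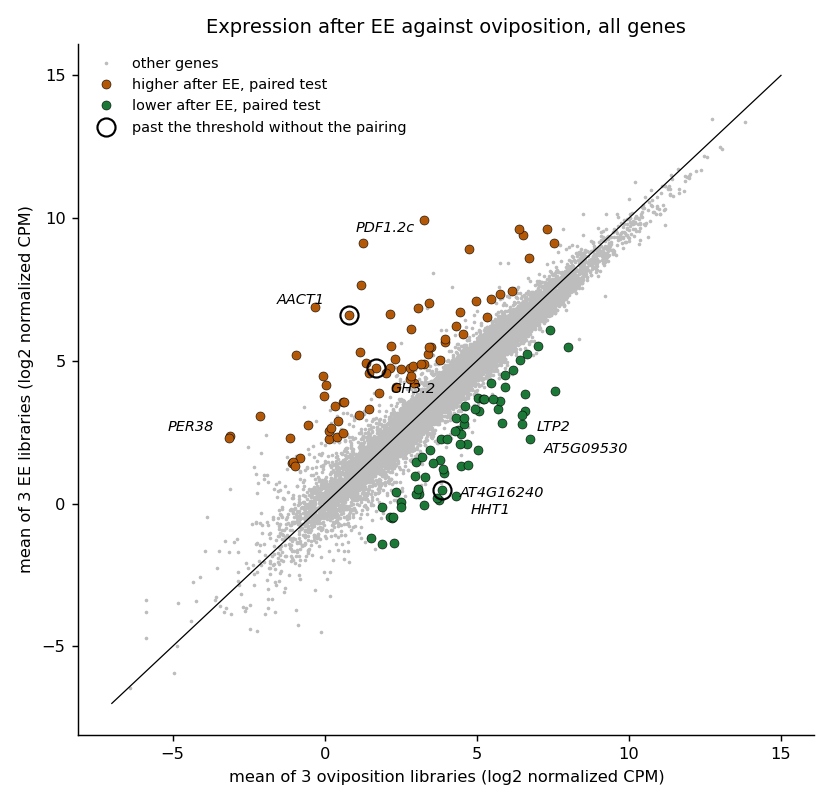
Mean log2 normalized CPM of the 3 EE libraries (vertical axis) against that of the 3 oviposition libraries (horizontal axis) for all 17605 genes, with the line of equal values. Orange points are the 71 genes higher and green points the 65 genes lower after EE in the paired limma test, and rings mark *AACT1*, *GH3.2* and *AT4G16240*, which passed without pairing. Most genes lie along the line, and the median difference over all genes was -0.04.

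*AACT1* (AT5G61160, chromosome 5, 24608724 to 24610304 in TAIR10) showed the clearest difference. This gene is annotated in the files as an anthocyanin aromatic acyltransferase and is known as an agmatine coumaroyltransferase, an enzyme that makes antifungal hydroxycinnamic acid amides. Its log2 values were 1.02, 0.89 and 0.49 after oviposition, and 6.31, 5.89 and 7.59 after EE. The untreated plants were at -0.52, -1.45 and -0.79, so all EE libraries stood far above all others. The difference of 5.80 ± 0.46 (SE, n = 3 and 3), a 55.8-fold higher level, had an adjusted p of 0.01045 in limma and of 0.00562 in the paired test. *LAL5* (AT3G23550), a MATE efflux carrier gene listed with the amide pathway, was at 3.16, 1.22 and 2.02 after oviposition and at 6.98, 5.40 and 7.56 after EE (paired adjusted p = 0.00571 in limma). In contrast, the genes that supply this pathway did not pass the test. Of 12 measured genes of amide synthesis, these 2 were called, and the median difference over the 12 was 0.09, against -0.04 for all genes. The coumarate ligase gene *4CL2* differed by 1.16 and the arginine decarboxylase gene *ADC1* by 0.83, both short of the threshold, whereas *ADC2* was at 6.74 after oviposition and 6.73 after EE. The differences of *4CL1*, *4CL3*, *ATC4H* and *PAL1* to *PAL4* lay between -1.55 (*4CL3*) and 0.36 (*PAL3*).

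*GH3.2* (AT4G37390, chromosome 4, 17579657 to 17582022) encodes an enzyme that joins auxin to amino acids and so lowers free auxin. It was at 1.31, 2.05 and 1.68 after oviposition and at 5.02, 4.70 and 4.51 after EE, a difference of 3.06 ± 0.33 (adjusted p = 0.0438 in limma, paired adjusted p = 0.00833). The control mean was -1.37, and every control library lay below every oviposition library. *GH3.3*, of the same function, stood at 2.39, 1.27 and 3.23 after oviposition and at 5.23, 4.89 and 5.05 after EE (paired adjusted p = 0.0222). These 2 were the called members among the 9 measured genes of a GH3 list written by hand, whose median difference was 0.61. The 10 genes described in the files as auxin-responsive GH3 proteins had a lower median, 0.39, with 2 called. Of these 10, groups did not overlap in 2 with EE higher and in 1 with EE lower, against 4.28% and 6.06% of all genes. *GH3.17* differed by 2.07, but 1 oviposition library, at 3.86, lay above all EE libraries. *GH3.5*, *GH3.6*, *GH3.9*, *GH3.10*, *JAR1* (GH3.11) and *PBS3* (GH3.12), which were not called, differed by between -0.61 (*GH3.9*) and 1.07 (*GH3.5*).

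The windows before the starts of some of these genes are shown with the motifs of defence regulators that they hold. Each window is the 250 bases before the deposited gene start, 5′ to 3′ on the strand of the gene, read from the RefSeq TAIR10.1 assembly. Capitals mark exact matches on either strand to GCCGCC, the GCC box bound by ERF factors, or to TTGACC or TTGACT, the W box bound by WRKY factors. *AACT1* and *PER38* are shown for their GCC boxes. *GH3.2* and *PDF1.2c* are shown as genes higher after EE with a W box but no GCC box within the window. *HHT1* is shown for W boxes in a gene lower after EE. Other motifs counted below are not marked.
*AACT1*, chr5:24608474-24608723, plus strand: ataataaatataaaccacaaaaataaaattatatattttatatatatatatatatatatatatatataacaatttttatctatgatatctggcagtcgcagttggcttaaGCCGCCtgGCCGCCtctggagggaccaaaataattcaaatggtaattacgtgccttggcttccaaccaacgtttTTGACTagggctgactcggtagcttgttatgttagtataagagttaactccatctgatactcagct
*PER38*, chr4:5603903-5604152, plus strand: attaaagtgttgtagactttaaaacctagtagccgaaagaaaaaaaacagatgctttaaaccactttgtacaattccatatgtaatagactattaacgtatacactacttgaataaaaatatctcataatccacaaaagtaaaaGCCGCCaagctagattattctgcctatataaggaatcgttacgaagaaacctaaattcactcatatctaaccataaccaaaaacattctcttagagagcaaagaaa
*GH3.2*, chr4:17579407-17579656, plus strand: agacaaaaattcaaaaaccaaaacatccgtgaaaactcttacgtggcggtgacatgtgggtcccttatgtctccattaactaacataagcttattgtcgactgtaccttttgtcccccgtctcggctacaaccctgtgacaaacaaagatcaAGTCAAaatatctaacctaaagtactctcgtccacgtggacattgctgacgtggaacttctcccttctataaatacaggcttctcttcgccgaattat
*PDF1.2c*, chr5:17909508-17909757, minus strand: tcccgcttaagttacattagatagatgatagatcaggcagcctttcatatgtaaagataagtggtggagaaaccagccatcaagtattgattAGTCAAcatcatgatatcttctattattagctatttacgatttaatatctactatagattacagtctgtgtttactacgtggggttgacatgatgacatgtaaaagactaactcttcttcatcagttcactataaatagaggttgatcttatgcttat
*HHT1*, chr5:16431124-16431373, plus strand: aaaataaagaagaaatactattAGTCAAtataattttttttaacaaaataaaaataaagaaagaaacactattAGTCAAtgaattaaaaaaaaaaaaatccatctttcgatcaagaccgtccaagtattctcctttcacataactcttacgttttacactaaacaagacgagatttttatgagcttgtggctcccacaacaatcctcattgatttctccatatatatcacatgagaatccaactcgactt

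The GCC box was found in 8 of the 71 windows of genes higher after EE (11.3%), in 0 of the 65 windows of genes lower after EE and in 430 of 17523 windows of all nuclear genes (2.45%). The 8 genes were *AACT1*, *PER38*, *Prx37*, *AT1G15125*, *AT3G59930*, *ACA12*, *ATGSTU10* and *PUP21*, and *AACT1* held the motif at 140 and 132 bases before its start. *PER38* and *Prx37* are neighbouring peroxidase genes on chromosome 4. The W box was found in 50.7% of the windows of genes higher after EE, in 30.8% of those lower and in 29.4% of all windows. The core of the abscisic acid response element, ACGTGT or ACGTGG, was found in 21.1%, 35.4% and 20.2%, the auxin response element, TGTCTC or TGTCGG, in 12.7%, 26.2% and 16.1%, and the G box, CACGTG, whose letters can overlap the abscisic acid element, in 11.3%, 12.3% and 9.32%. Sites more than 250 bases before a gene start, also those of the PDF1 defensin genes described below, were not searched. These are matches of letters with no test, and say nothing about binding.

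Genes of the ethylene and jasmonate branch, among them 4 plant defensin genes of the PDF1 type, had the highest list median in favour of EE. *PDF1.2c* (AT5G44430) was at -0.60, 2.35 and 2.01 after oviposition and at 8.81, 7.76 and 10.79 after EE, a 234-fold difference of means. *PDF1.2* (AT5G44420) was at 2.67, 3.81 and 3.27 after oviposition and at 9.93, 8.45 and 11.41 after EE. In recovered reads this was 239 to 616 per oviposition library against 18888 to 109885 per EE library, and the groups were far from overlapping. *PDF1.2b* and *PDF1.3*, close relatives whose reads may be shared with the first pair in counting, differed by 6.48 and 7.21. Paired adjusted p-values in limma ranged from 0.00562 for *PDF1.3* to 0.01617 for *PDF1.2b*. Without pairing, those of *PDF1.2c*, *PDF1.2*, *PDF1.2b* and *PDF1.3* were 0.07856, 0.1127, 0.3095 and 0.3301, all short of the threshold. For these 4 genes EE replicate 2 was the lowest EE library. Over all 11 measured defensin and thionin genes the median difference was 0.37, and -0.16 without EE replicate 3. Of the 11, 6 had a higher mean after EE, and 5 were called, these 4 and AT3G59930.

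The transcription factor gene *ORA59*, which activates the defensins, was itself higher after EE, at 5.02, 4.05 and 5.17 against 3.42, 1.61 and 1.43 (paired adjusted p = 0.0421 in limma). So were *HCHIB*, a basic chitinase (difference 3.34, paired adjusted p = 0.0148), and *PR4*, a chitin-binding protein (3.26, paired adjusted p = 0.0138). In all, 7 of 13 measured genes of the branch passed the paired test, each higher after EE, and the same 7 had groups that did not overlap, where 4.28% of all genes were higher after EE without overlap. The median difference of the 13 was 2.59. The remaining 6 were signalling and ethylene synthesis genes, from *EIL1* with 0.05 to *ACS6* with 1.32, and were not called. Of 20 measured genes of jasmonate synthesis and the MYC branch, 1 passed the paired test, *VSP2*, lower after EE at 1.56, 2.04 and 3.21 against 3.25, 4.34 and 4.49 (paired adjusted p = 0.0348 in limma). Groups did not overlap in 5 of the 20, all lower after EE, as for 6.06% of all genes, and the median difference was -0.56.

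**Figure D2:**
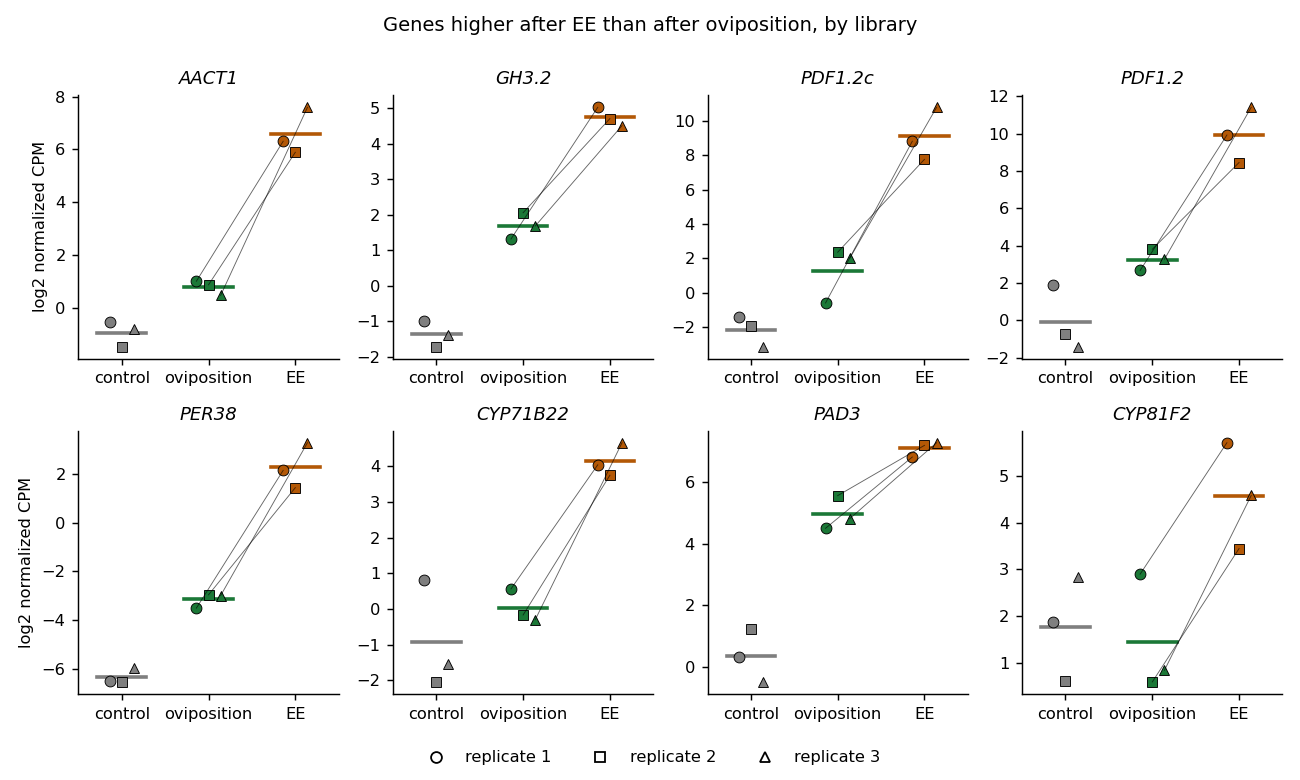
Log2 normalized CPM by library (vertical axis) in the control, oviposition and EE groups for 8 genes higher after EE. Symbols mark the replicate number, thick bars the mean of 3 libraries and thin lines join same-numbered oviposition and EE libraries. In each panel all 3 EE libraries lie above all 3 oviposition libraries, with the largest distance in *PDF1.2c*.

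Some genes of tryptophan-derived defence compounds were also higher after EE. *PAD3*, which catalyses the last step of camalexin synthesis, was at 4.50, 5.56 and 4.82 after oviposition and at 6.82, 7.20 and 7.28 after EE, a 4.40-fold difference (paired adjusted p = 0.0138 in limma). *CYP79B2*, which starts the pathway from tryptophan, differed by 1.58 and *CYP71A13*, the next camalexin enzyme, by 1.85. These 3 of 8 measured camalexin genes were called in the paired test, all higher after EE, and 0 of the 8 passed without pairing. The median of the 8 was 1.27. For indole glucosinolates, the regulators *MYB51* and *ATMYB122* and the methyltransferase gene AT1G21100 were called, 3 of 13 measured, with differences of 1.42, 1.94 and 1.94 and a list median of 0.47. *CYP81F2*, which hydroxylates indole glucosinolates and is induced in PTI, was at 2.90, 0.59 and 0.84 after oviposition and at 5.71, 3.45 and 4.58 after EE, while control libraries lay between 0.61 and 2.84. Its oviposition libraries thus overlapped the controls and its EE libraries stood above both (paired adjusted p = 0.00643). *CYP82C2*, which hydroxylates another indole compound made through *CYP79B2*, was at 0.07, 3.06 and 0.39 after oviposition and at 5.29, 5.13 and 5.56 after EE (paired adjusted p = 0.0384). Of 13 measured aliphatic glucosinolate genes none was called in the paired or the unpaired limma test, where none had an unadjusted p under 0.05 either, and their median difference was -0.16.

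Further enzymes followed. Of 109 cytochrome P450 genes, 7 were called in the paired test, all higher after EE, although the median over the family was -0.02. Of all genes, 0.403% were called higher and 0.369% lower. *CYP71B22* was at 0.56, -0.17 and -0.30 after oviposition and at 4.04, 3.75 and 4.66 after EE (paired adjusted p = 0.00643 in limma). Among 25 class III peroxidase genes, which act in the cell wall, 4 were higher and 2 lower after EE by the paired test. *PER38* had 3, 5 and 5 reads after oviposition, 210, 142 and 390 after EE and 0 in each control library. *Prx37* was at 0.45, 0.35 and -0.96 after oviposition and at 4.63, 3.90 and 4.86 after EE. The opposite pattern was shown by *PER49*, at 2.39, 2.82 and 1.60 after oviposition and at -1.87, -0.71 and -1.54 after EE (paired adjusted p = 0.0138), and by *ATPA2*, with a difference of -2.63. Among 91 UDP-glycosyltransferase genes 3 were called, each higher after EE. They were led by *UGT73B4* with 5, 25 and 6 reads after oviposition, 463, 351 and 357 after EE and 0, 5 and 0 in controls. Whether *PER38*, *UGT73B4* and other genes with few reads outside EE are in the deposited values only through the EE libraries was not tested. Such genes could hardly be called lower after EE. Of 44 glutathione S-transferase genes, *ATGSTF7* and *ATGSTU10* were higher and *GST30* lower after EE. *GST30* was at 4.45, 4.41 and 4.30 after oviposition and at 2.86, 2.26 and 2.65 after EE, and control libraries lay at 3.74 to 4.15, between both groups. Its paired adjusted p was 0.01778.

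Of 12 genes of chitinases, which degrade fungal walls, AT2G43590 and *HCHIB* were called, both higher after EE, and AT2G43590 was at 1.64, 1.37 and 1.11 after oviposition and at 4.74, 4.08 and 5.94 after EE. The legume-type lectin genes AT3G16530 and AT3G15356 differed by 3.59 and 3.77 and were both called, out of 4 measured lectins of this kind, a list written after the values were seen. The other two had a lower mean after EE and were not called. In AT3G16530 the EE libraries, at 6.91, 5.85 and 8.30, lay above the oviposition libraries at 4.58, 2.06 and 3.65, which in turn overlapped controls at 3.90, 1.90 and 3.66. *ATEXT3*, an extensin that strengthens the cell wall, was at 7.66, 6.78 and 7.45 after oviposition and at 9.78, 9.27 and 9.77 after EE, with controls between 2.24 and 3.28 (paired adjusted p = 0.00914 in limma).

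PTI genes differed as a minority. Of 22 measured, 4 passed the paired test, all higher after EE: *CYP81F2*, the marker *NHL10* (2.54), *PROPEP3*, the precursor of a danger peptide (2.30), and *RBOHD*, the NADPH oxidase of the oxidative burst (1.28). *RBOHD* was at 5.90, 6.44 and 6.17 after oviposition and at 7.46, 7.35 and 7.56 after EE, above all control libraries. The receptor genes *FLS2*, *EFR*, *CERK1* and *BAK1*, with differences of 0.06, 0.19, 0.30 and 0.11, were not called. The list median was 0.29, and 21 of 22 genes had a higher mean after EE, as had 45.9% of all genes. Among 54 WRKY factor genes *WRKY31* was called (2.45). Groups did not overlap in 10 of the 54 with EE higher and in 2 with EE lower, against 4.28% and 6.06% of all genes. Of 99 NBS-LRR resistance genes 1 was called, AT4G11170, with a difference of 2.45, and 87 had a higher mean after EE, with a median of 0.36. None of 49 NAC factor genes was called in the paired limma test (2 had an unadjusted p under 0.05 in the unpaired test), and their median was 0.27.

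The genes lower after EE, and so higher where intact eggs had been, included genes of the cell surface and cell wall. *AT4G16240*, described in the files only as an unknown protein, was at 4.06, 3.99 and 3.49 after oviposition, at 0.50, 0.67 and 0.30 after EE and at 0.30, -0.43 and 0.25 in controls. It was thus 10.3-fold lower after EE than after oviposition (difference -3.36 ± 0.33, adjusted p = 0.0313 in limma, paired adjusted p = 0.00562). The EE libraries reached at most 0.67, beside a highest control of 0.30. Lipid transfer proteins carry lipids to the cuticle. *LTP2* was at 6.53, 6.31 and 6.59 after oviposition and at 2.79, 1.98 and 3.59 after EE, with controls from 0.47 to 3.93 (paired adjusted p = 0.00571). In all 4 of 36 lipid transfer protein genes were called, all lower after EE, among them *LTP4* (-2.76), AT5G64080 (-2.70) and AT3G22620 (-2.59). Groups did not overlap in 11 of the 36 with EE lower and in 1 with EE higher, against 6.06% and 4.28% of all genes. The median was -0.53.

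**Figure D3:**
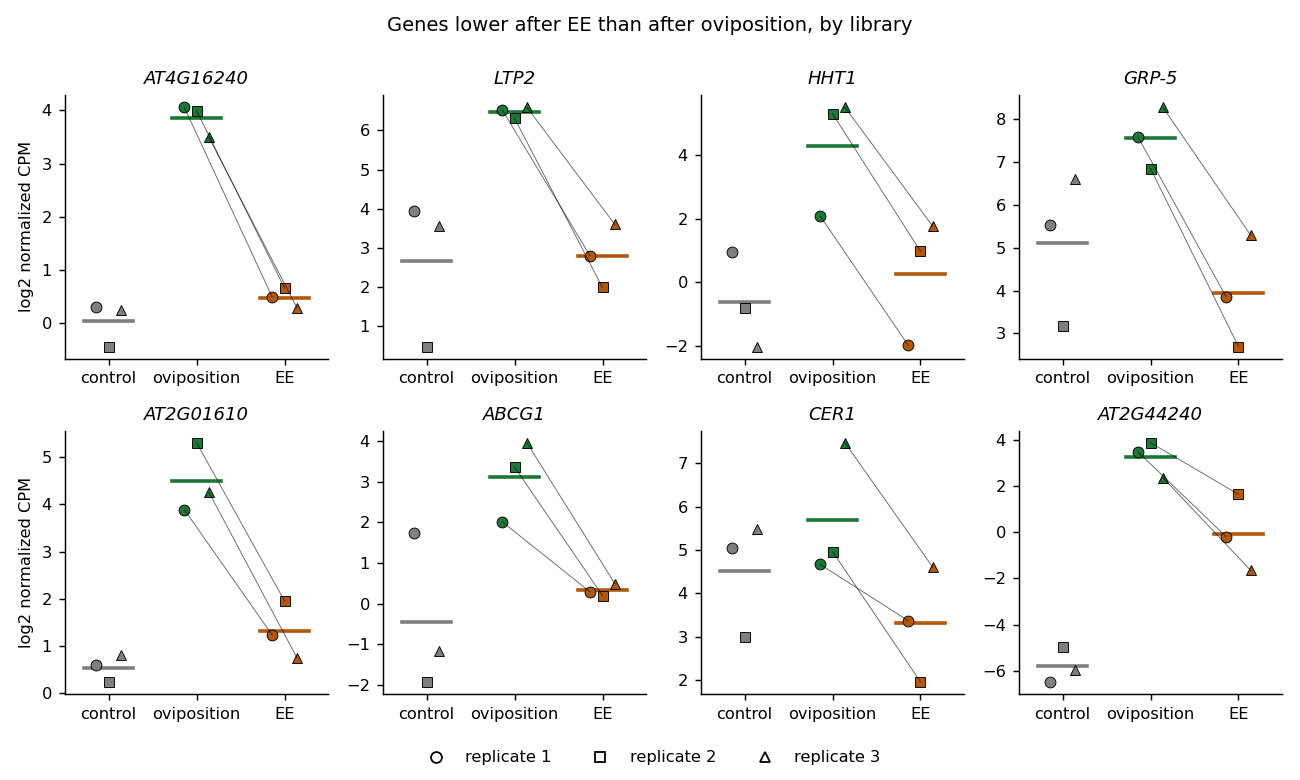
Log2 normalized CPM by library (vertical axis) in the control, oviposition and EE groups for 8 genes lower after EE. Symbols mark the replicate number, thick bars the mean of 3 libraries and thin lines join same-numbered oviposition and EE libraries. In all panels each line falls from oviposition to EE, and the EE libraries of *LTP2* and *CER1* lie within or close to the range of the controls.

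A suberin list written after the values were seen held 18 genes, of which 8 were measured and 3 were called, all lower after EE. *HHT1*, which attaches ferulate to suberin, was at 2.09, 5.32 and 5.52 after oviposition and at -1.98, 0.98 and 1.76 after EE. The libraries varied together by number, and the difference of -4.05 had a paired adjusted p of 0.00562 in limma but an adjusted p of 0.9986 without pairing. The transporter gene *ABCG1* was at 2.01, 3.36 and 3.96 after oviposition and at 0.29, 0.20 and 0.49 after EE (paired adjusted p = 0.0328), and the fatty acyl reductase gene *FAR1* differed by -1.73 (paired adjusted p = 0.0305). The 8 genes had a median of -2.32 and no member with a higher mean after EE, where 54.1% of all genes had a lower mean. Their median levels were -0.54 in controls, 3.15 after oviposition and 0.58 after EE. As the list was written with the values known, its median and direction are a description only. Whether members are in the deposited values only through the oviposition libraries was not tested. Of 13 measured cuticular wax genes, also listed after the values were seen, *CER1*, needed for alkanes, and *LTPG1*, a lipid transfer protein for wax export, were called. *CER1* was at 4.66, 4.96 and 7.47 after oviposition and at 3.37, 1.95 and 4.60 after EE (paired adjusted p = 0.0384). The list median was -0.80, and 7 of the 13 had groups that did not overlap, all lower after EE, as had 6.06% of all genes. None of 6 cutin genes was called in limma, 0 had an unadjusted p under 0.05 in the unpaired test, and their median was -0.37.

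Of 89 glycine-rich and proline-rich wall protein genes, a list written after the values were seen, 6 were called lower and 1, *ATEXT3*, higher after EE. Their median of -0.05 was close to that of all genes and changed sign without oviposition replicate 1 or EE replicate 2, and 38 of the 89 had a higher mean after EE. *GRP-5*, a glycine-rich protein, was at 7.58, 6.85 and 8.28 after oviposition and at 3.85, 2.69 and 5.29 after EE, 12.4-fold lower (paired adjusted p = 0.00562 in limma). Controls lay at 5.53, 3.18 and 6.60, below every oviposition library and overlapping the EE libraries. AT5G09530, a hydroxyproline-rich glycoprotein, showed the largest difference of the called genes lower after EE, -4.47, with 5.12, 7.62 and 7.46 after oviposition and -0.38, 3.33 and 3.83 after EE. The expansin genes *ATEXPA4* and *ATEXPB3*, whose products loosen walls, and *XTH19*, which recuts xyloglucan, differed by -2.18, -2.36 and -2.69 and were the 3 called of 35 genes of these families. Of the 35, 14 had a higher mean after EE, and the median of -0.20 became 0.18 without EE replicate 2. Among 68 pectin enzyme and inhibitor genes, 3 were called, all lower after EE. AT2G01610, a pectin methylesterase inhibitor, was at 3.89, 5.31 and 4.26 after oviposition and at 1.23, 1.95 and 0.75 after EE (paired adjusted p = 0.00571).

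Of 14 genes of water deficit and abscisic acid responses, 1 was called, lower after EE. *KIN1*, a cold and drought gene, was at 5.21, 5.70 and 6.91 after oviposition and at 3.94, 3.17 and 5.18 after EE (paired adjusted p = 0.0352 in limma). Groups did not overlap in 7 of the 14, all lower after EE, as for 6.06% of all genes. Of the 14, 13 had a lower mean after EE, as had 54.1% of all genes, with a median of -0.83. In the unpaired limma test 0 of the 14 had an unadjusted p under 0.05. *RD22* was not called, with means of 10.6 and 9.35. The dehydrin gene *LTI30*, which is outside this list, was called with a difference of -1.32. So were *LSU3* and *ATSDI1*, markers of sulphur starvation, each with a difference of -1.57.

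Levels in untreated plants were compared with those of the called genes as a description. Among the 71 genes higher after EE, the EE mean lay above the highest control library in all 71 and the oviposition mean in 51, with group medians of -1.05 in controls, 2.16 after oviposition and 4.88 after EE. Among the 65 genes lower after EE, the oviposition mean lay above the highest control in 48, whereas the EE mean lay within the control range in 35, above it in 12 and below it in 18. The median level was 1.89 in controls, 4.45 after oviposition and 2.25 after EE. AT2G44240 is an example from the 12, with 3.49, 3.90 and 2.38 after oviposition, -0.19, 1.65 and -1.65 after EE and at most 1 read in each control library.

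None of 21 genes of SA synthesis and signalling passed the paired limma test, and 1 (*PR1*) had an unadjusted p under 0.05 in limma without pairing. In 4 of them groups did not overlap, 2 in each direction, against 4.28% (EE higher) and 6.06% (EE lower) of all genes. The median difference was -0.07. *ICS1*, the main SA synthesis gene, differed by -0.20 with a 95% confidence interval from -1.41 to 1.004. *PR1*, the standard SA marker, was at 8.92, 6.70 and 7.90 after oviposition and at 10.00, 9.39 and 9.51 after EE, with controls at or under 1.65. Its difference of 1.80 (interval 0.21 to 3.39) had an adjusted p of 0.9986 in limma and of 0.08149 when paired, although every EE library was above every oviposition library. The cell death marker *SAG13* was at 5.34, 7.21 and 6.53 after oviposition and at 7.70, 7.56 and 7.53 after EE, a difference of 1.24 (interval -0.74 to 3.21). The trypsin inhibitor gene *ATKTI1* (TI) differed by 2.67 (interval 0.37 to 4.97, paired adjusted p = 0.1662). These intervals leave room for differences of several fold. None of 8 genes of N-hydroxypipecolic acid synthesis and SA turnover was called, with a median of -0.09, and none of 14 senescence or 11 touch genes, with medians of 0.26 and 0.19. In these 3 lists 0, 1 and 0 genes had an unadjusted p under 0.05 in the unpaired limma test. In the senescence list *DIN2* had the largest difference, 3.51, with 0.71, 5.86 and 3.51 after oviposition and 7.41, 5.87 and 7.32 after EE.

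In larger housekeeping groups the medians were below 0. The median difference was -0.44 over 77 photosystem and light-harvesting genes and -0.41 over 305 ribosomal protein genes, against -0.04 over all genes, and no member was called in the paired or unpaired limma test, with 0 and 1 genes at an unadjusted p under 0.05 in the latter. All 3 pairs had a lower value after EE in 54 of the 77 photosystem genes and in 79 of the 305 ribosomal genes, against 21.7% of all genes. The ribosomal share by pairs was thus near that of all genes. By group means, however, 19 of the 305 ribosomal genes were higher after EE, against 45.9% of all genes. The ribosomal median ranged from -0.59 to -0.10 when single libraries were left out. The photosystem median ranged from -0.90 to 0.06 when single libraries were left out, and *CAB1* stood apart in the replicate 2 libraries as given above. Among the 20 beta-1,3-glucanase genes 1 was called, AT5G55180, lower after EE by 1.31, and among 31 HXXXD-type acyltransferase genes 1, *HHT1*.

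**Figure D4:**
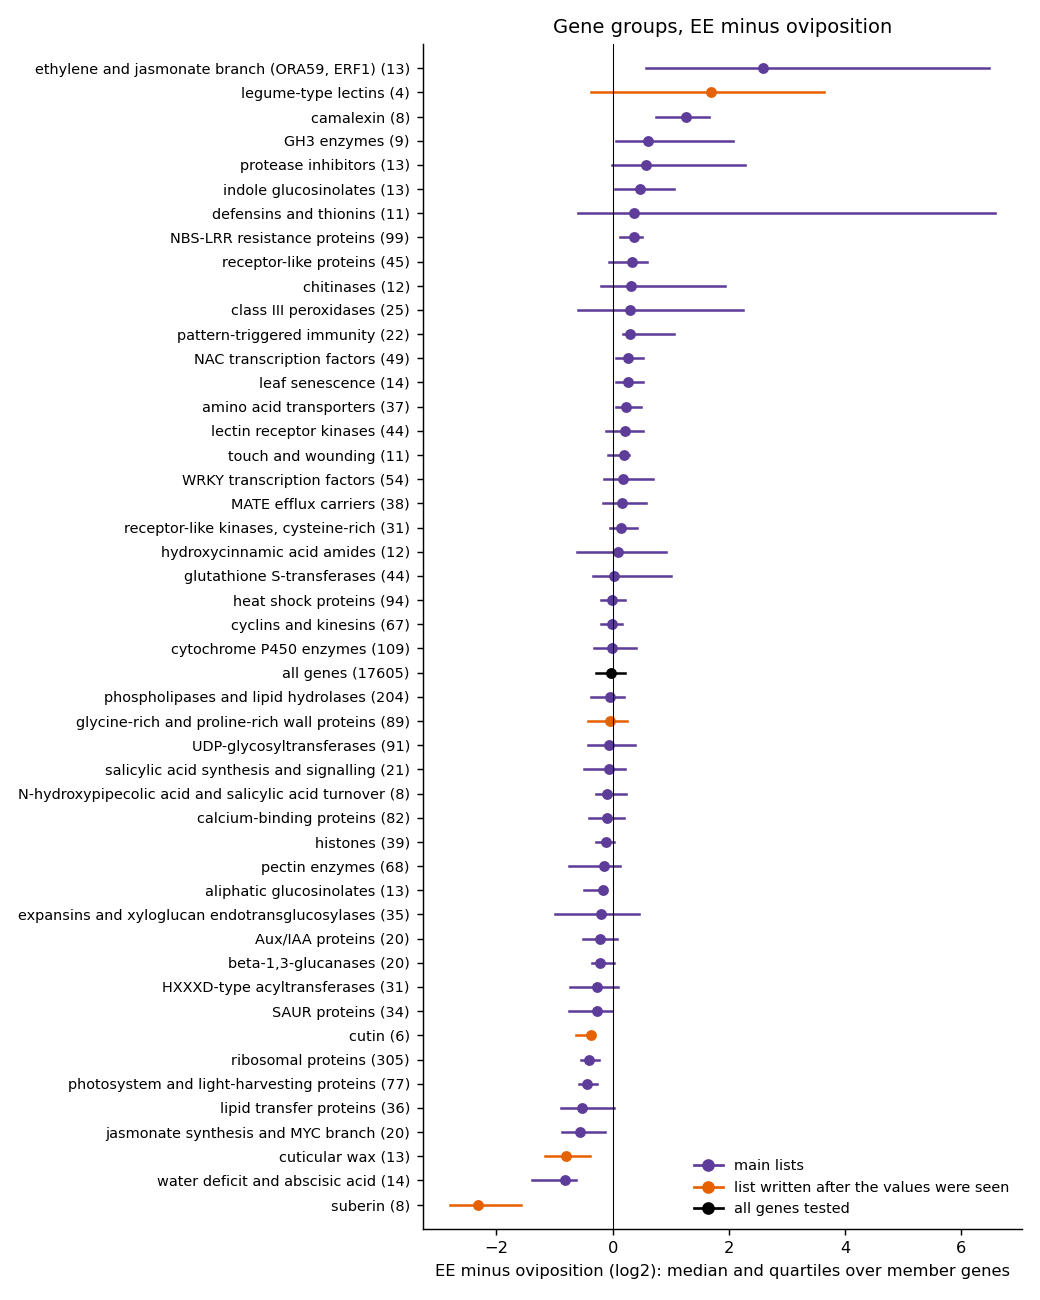
Median (points) and quartiles (bars) of the difference EE minus oviposition in log2 units over the member genes of each group, with the number of measured genes in parentheses. Purple marks the main lists, orange the lists written after the values were seen and black all 17605 genes. The ethylene and jasmonate branch lies highest with a median of 2.59. Suberin, a list written after the values were seen, lies lowest with -2.32.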

How the data were processed

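RNA-seq of 9 libraries, 3 per group, was analysed. The authors mapped reads to TAIR10 with STAR, applied TMM and library size normalization, and deposited log2 CPM values. Every library has the same median, so a scaling between libraries is included. The submitters' processing notes also name cutadapt 1.5, HTSeq, edgeR 3.4.0 and limma 3.2. The filter on genes is not given in the sources used here. Reads may be shared between near-identical genes, and this could not be checked. A second deposited table holds the authors' log2 fold changes against control with adjusted p-values and was not used.

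Whole reads were recovered from the log2 values as reads plus 0.5, and 100.0% of 158445 values were whole within 0.01 reads. No replicate libraries were duplicates. The log2 values were tested with limma 3.58.1 in R 4.3.3, with group means over 9 libraries, a mean-variance trend, two-sided p-values and Benjamini-Hochberg adjustment over 17605 genes. No value was filtered out and no pseudocount was added. The procedures were tested on simulated data. The study's methods name 3 independent experiments, and replicates are numbered 1 to 3, but no label says that a number marks an experiment. Deviations from group means of same-numbered EE and oviposition libraries correlated by 0.553, 0.764 and 0.526, above the limit of 0.1 for every number, and each library correlated best with its own number. Control libraries, which the paired test leaves out, did not follow the numbers against oviposition, with 0.0226, 0.674 and -0.157. Against EE the same-numbered values were 0.335, 0.775 and 0.318, all above the limit. EE replicates 1 and 3, however, correlated more with another control number, by 0.432 and 0.349. Leaving the controls out is thus a choice on which the paired count depends. The paired test is limma on the 6 libraries with the number as a block. Its p-values rest on the spread of the differences within 3 pairs, since the spread between numbers is removed by the block.

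Named genes include those past the threshold. They include the 8 largest differences each way with an unadjusted p under 0.05, no overlap and at least 1 CPM in the higher group. Added to these are genes past the threshold in at least 2 of 3 alternatives (block, quantile normalization, 1 CPM added). Also named are the member of each list and up to 3 members of each family with the smallest p. The last are *PR1*, *SAG13*, TI and all measured genes of the amide and GH3 lists. Other genes were named after their values were seen. The comparison and lists were chosen with earlier results of these data known. Window sequences are from RefSeq TAIR10.1, and 17512 gene identifiers matched RefSeq loci at overlapping positions. Plots were made in Python 3.11.15 (matplotlib 3.10.9).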

Additional observations from a re-analysis of the deposited data

How the results depend on the processing

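Without pairing, the count of 3 genes stayed within a factor of 1.5 without the mean-variance trend, with a robust prior, with the scale step undone, with a filter at a mean of 0 and with an absolute difference of at least 1. It was 5 with precision weights, 5 with voom on recovered reads, 5 with only the 6 libraries, 52 with weights per library, 14 with quantile normalization, 36 with 1 CPM added and 0 at an adjusted p of 0.01. With the replicate block it was 1 over 9 libraries, 136 over 6 libraries, 15 with voom and, chosen after seeing the data, 29 with 1 CPM added. Leaving out 1 library gave 0 to 4. Where 0 genes passed in limma, between 319 and 819 had an unadjusted p under 0.05. The paired count of 136 was 60 without the trend and ranged from 135 to 386 when 1 pair was left out, where 2 pairs remain and the spread rests on few degrees of freedom. These paired alternatives were added after seeing the data. Of 48 list medians, 17 changed sign when single libraries were left out. Of lists described above these were hydroxycinnamic acid amides, SA genes, N-hydroxypipecolic acid genes (also with 1 CPM added), touch genes, photosystem genes, defensins and thionins, expansins and xyloglucan enzymes, glycine-rich and proline-rich wall proteins, UDP-glycosyltransferases, glutathione S-transferases and cytochrome P450 enzymes (also in 3 scalings). That of class III peroxidases changed sign with a filter at a mean of 0. Those of the ethylene and jasmonate branch, camalexin, PTI, the MYC branch, water deficit and lipid transfer proteins kept their sign in every scaling and left-out library that was run. So did suberin and wax, both listed after the values were seen. The cause of these changes was not tested. Over 135 named genes, 28 of 3091 values under alternatives had the opposite sign, none of a gene past the threshold, 132 newly passed the threshold and 20 no longer did. Of 672 list medians under alternatives, 41 moved by more than the spread between pairs. With 3 libraries per group, the smallest difference that passed the paired test was 1.18.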
